A study of Saccharomyces cerevisiae with 12 samples.

Results

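Budding yeast has 5 sirtuins, enzymes that remove acetyl groups from proteins and consume NAD in doing so: Sir2 and its relatives Hst1, Hst2, Hst3 and Hst4. Sir2 works with Sir3 and Sir4, which are not enzymes, in the complex that silences the spare mating type cassettes and genes near telomeres, and in a separate complex at the ribosomal DNA. Hst1 represses genes together with Sum1 and Rfm1, Hst2 is mostly cytoplasmic, and Hst3 and Hst4 deacetylate a lysine in the core of newly deposited histone H3. The 7 genes of these proteins were followed here across all comparisons of a series on the forkhead transcription factor Hcm1; the rule that picks their rows uses ORF names and no measured value. They are SIR2 (YDL042C), HST1 (YOL068C), HST2 (YPL015C), HST3 (YOR025W), HST4 (YDR191W), SIR3 (YLR442C) and SIR4 (YDR227W), 7 of the 6174 ORFs in the deposited table.

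RNA was compared on 12 2-colour arrays, 2 for each of 6 comparisons, the dyes being exchanged between Exp 1 and Exp 2. Every strain derived from CML128, a MATa haploid with marker mutations in TRP1, HIS4, LEU2 and URA3, and grew exponentially in YPD. Δhcm1 (hcm1::natMX4) was compared with wild type. The strain tetHCM1HA (tetO7-HCM1-3HA::kanMX4) was made from HCM1HA and expresses the tagged gene from a promoter repressed by doxycycline. It was compared with its parent HCM1HA (HCM1-3HA::natMX4), and with itself after 10 h of doxycycline. The control comparisons were HCM1HA over wild type, and HCM1HA after 4 h or 10 h of doxycycline over HCM1HA without it. The doxycycline controls thus run in the opposite direction to the tet strain without over with doxycycline. A value is a log2 ratio with the array median at 0, and a positive value means more RNA in the first-named strain or condition. A ratio cannot rank genes by abundance, and fewer cells with RNA of a gene cannot be told apart from less RNA in each cell.

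HCM1 itself was at -3.55 and -3.18 on the Exp 1 and Exp 2 arrays of the deletion, at 5.31 and 5.02 in tetHCM1HA over HCM1HA, and at 5.79 and 5.51 in tetHCM1HA without over with doxycycline, each in the direction the labels give. In HCM1HA, where doxycycline has no tet promoter to act on, HCM1 was at 1.37 and 0.68 after 10 h, and at 0.50 on the 1 array that measured it after 4 h. By the design text every sample was hybridised in both dye orders, so both arrays of a comparison were counted as 1 RNA pair. An SD over them (n = 2 arrays) is then a technical spread, but whether Exp 1 and Exp 2 share their RNA could not be checked in the values. The 2 columns of HCM1HA over wild type mirror each other (r = -0.999), so their direction is not settled and only sizes are used. Only 2 members, HST1 and HST4, had a value on all 12 arrays, as did 1592 of all ORFs. HST2 and SIR4 had values on 9 arrays, SIR2 on 8, HST3 on 6 and SIR3 on 1.

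The data show small differences for these genes. HST2 was the 1 member that lay at least 1.5-fold from the array median (0.585 on the log2 scale) on both arrays of a comparison: it was lower in the tet strain without doxycycline than with it, by 0.69 and 1.01 on the log2 scale (-0.69 and -1.01). HST3 was above 0 on both arrays of the deletion and of the tet over the own promoter. The means of SIR2, HST1, HST4 and SIR4 over both arrays lay between -0.41 and 0.41 in every comparison that had them. No member passed the test across all ORFs in any comparison.

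**Figure D1:**
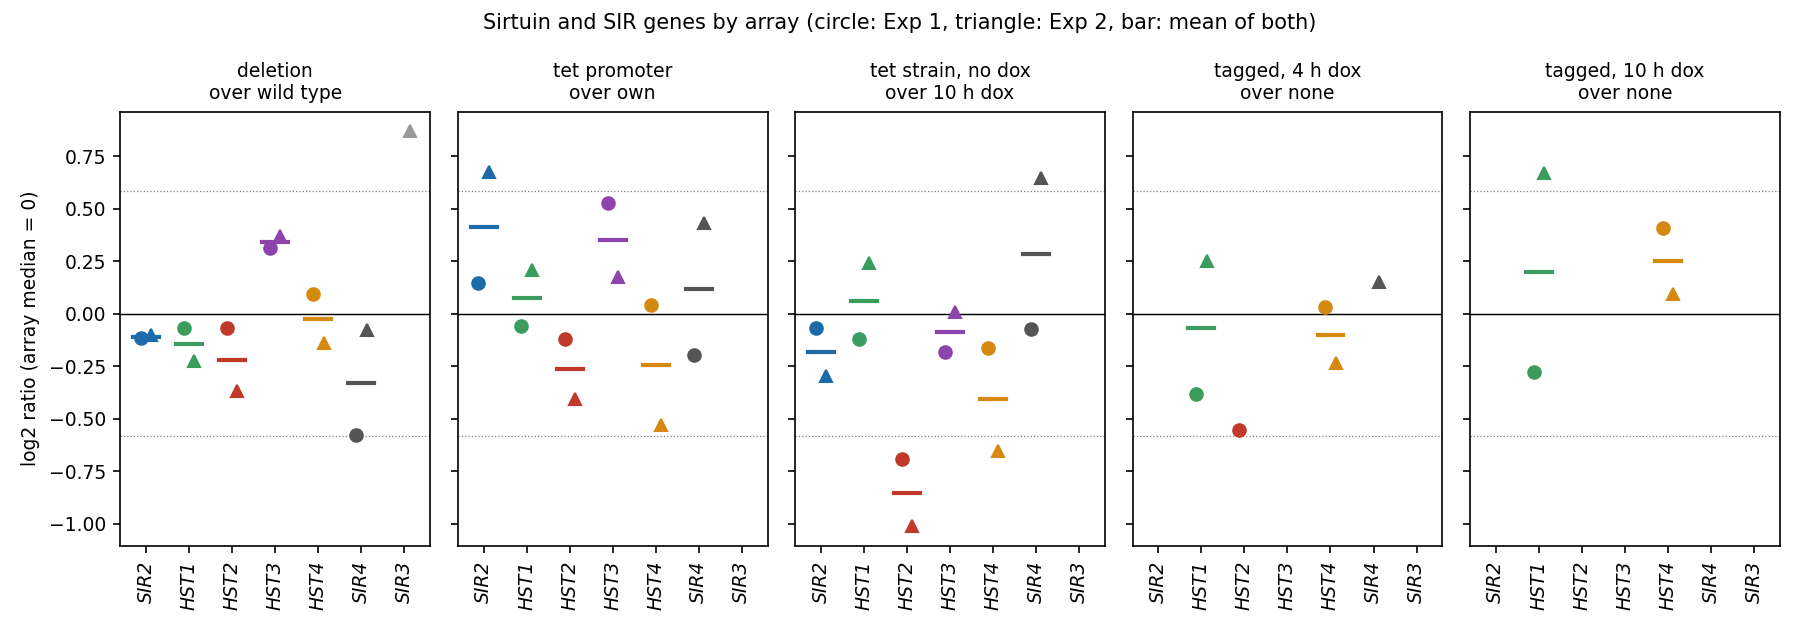
Log2 ratio (vertical axis, array median at 0) of each sirtuin and SIR gene on each array of 5 comparisons, with circles for Exp 1, triangles for Exp 2 and bars for the mean of both; dotted lines mark 1.5-fold. HST2 lies below the lower line on both arrays of the tet strain without over with doxycycline, at -0.69 and -1.01, and SIR3 has a single point, at 0.87.

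SIR2, the silencing deacetylase, was at -0.12 and -0.10 in the deletion, a mean of -0.11 ± 0.0086 (SD, n = 2 arrays). With the tet over the own promoter SIR2 was at 0.15 and 0.67, and in the tet strain without over with doxycycline at -0.07 and -0.30. The tet promoter comparison thus holds its highest mean, 0.41 ± 0.37 (n = 2), which rests mostly on the Exp 2 array. In the mirrored columns of HCM1HA over wild type it was at -0.006 and 0, and neither doxycycline comparison of HCM1HA had a value.

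SIR4, the scaffold that binds Sir2 and Sir3, was at -0.58 and -0.08 in the deletion, with a mean of -0.33 ± 0.35 (n = 2). It stood at -0.20 and 0.43 with the tet over the own promoter, and at -0.07 and 0.65 without over with doxycycline. In each of these comparisons the Exp 2 array read higher than Exp 1, and in both tet comparisons the arrays fell on opposite sides of 0. SIR3, whose protein binds nucleosomes and spreads along silent chromatin, had 1 value in the series, 0.87 on the Exp 2 array of the deletion. That array has a value for every ORF, and 722 ORFs (11.7% of all) had a value on a single array, so nothing can be said of a change in SIR3.

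HST1 was at -0.07 and -0.22 in the deletion, at -0.06 and 0.21 with the tet over the own promoter, and at -0.12 and 0.24 without over with doxycycline. Its means there were -0.15 ± 0.11, 0.07 ± 0.19 and 0.06 ± 0.26 (n = 2 each), so each of the tet values is smaller than the spread between its arrays. After doxycycline in HCM1HA the arrays of HST1 again lay on opposite sides of 0, at -0.39 and 0.25 after 4 h and at -0.28 and 0.67 after 10 h.

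HST2 was below 0 on both arrays of every Hcm1 comparison. Its arrays read -0.07 and -0.37 in the deletion, a mean of -0.22 ± 0.21, and -0.12 and -0.41 with the tet over the own promoter, a mean of -0.26 ± 0.20 (n = 2 each). Without over with doxycycline the mean was -0.85 ± 0.23 (n = 2), 1.81-fold lower, and 228 of the 4307 ORFs measured on both arrays (5.29%) lay as low or lower. In the same comparison 8.24% of all ORFs were at least 1.5-fold lower on both arrays and 8.34% higher, so a call of this size was not rare. Both arrays below 0 in all 3 Hcm1 comparisons was found in 15.3% of the 3826 ORFs measured throughout them.

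The doxycycline control for HST2 is thin. After 4 h of doxycycline in HCM1HA it had 1 value, -0.56 on the Exp 1 array, and after 10 h it had none; the mirrored columns of HCM1HA over wild type read -0.26 and 0.26. The effect of 10 h of doxycycline on HST2 apart from HCM1 was therefore not tested. Both tet comparisons have the tet strain without doxycycline as numerator, so subtracting the first from the second on arrays of the same dye order gives the own promoter over the tet strain with doxycycline, an indirect ratio that assumes equal tet samples. For HST2 this was -0.58 and -0.61, a mean of -0.59 ± 0.02 (n = 2), with 5.21% of 3841 ORFs as low or lower. For SIR2 the same indirect ratio was -0.22 and -0.97, for HST3 -0.71 and -0.17, for HST4 -0.21 and -0.12, for SIR4 0.12 and 0.21, and for HST1 -0.06 and 0.03. HST2 and SIR2 thus had close means in this ratio, -0.59 each, but of these only HST2 had arrays that lay near each other. HST2 differed between Exp 2 and Exp 1 by -0.29 and -0.32 in the tet comparisons, a difference that the subtraction largely removes. The ratio also reuses the values of HST2 given above and is no separate measurement. The neighbours of HST2, a look chosen after its values were seen, did not share them on both arrays. In the tet strain without over with doxycycline CIP1 was at 0.12 and 0.01, and SWI1 at -0.65 and 0.03. With the tet over the own promoter CIP1 was at 1.16 and 1.09, and SWI1 at -0.61 and 0.24.

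HST3 was at 0.32 and 0.37 in the deletion, a mean of 0.34 ± 0.04 (n = 2), 1.27-fold higher. With the tet over the own promoter HST3 was at 0.53 and 0.18, a mean of 0.35 ± 0.25, so loss of HCM1 and high HCM1 gave values of the same sign. Without over with doxycycline it was at -0.18 and 0.01, on either side of 0. The means stood at or above those of 89.8% and 84.5% of ORFs in the first pair of comparisons. HST3 had no value in any control comparison and could not be tested in this design.

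HST4 was at 0.09 and -0.14 in the deletion, at 0.04 and -0.53 with the tet over the own promoter, and at -0.16 and -0.65 without over with doxycycline. Its means were -0.02 ± 0.17, -0.24 ± 0.40 and -0.41 ± 0.35 (n = 2 each). Only the last put both arrays on 1 side of 0. In HCM1HA it was at 0.03 and -0.23 after 4 h of doxycycline and at 0.41 and 0.10 after 10 h. HST3 and HST4, which share a substrate, were both above 0 on Exp 1 with the tet promoter and on opposite sides of 0 on Exp 2.

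The members' counts past 1.5-fold lay near the shares over all ORFs. In the deletion 0 of 6 members measured on both arrays were past 1.5-fold, beside 0.213% of all ORFs higher and 5.54% lower. That lower share, here and below, takes in chromosome IX, whose 193 measured ORFs had a median of -0.92 and which holds no member. With the tet over the own promoter 0 of 6 were past it, beside 4.88% higher and 2.07% lower. Without over with doxycycline it was 1 of 6, HST2, which was lower, beside 8.34% higher and 8.24% lower. After 4 h of doxycycline in HCM1HA 0 of 2 were past it (5.09% of all ORFs higher, 5.13% lower), after 10 h 0 of 2 (10.3% and 12.2%), and 0 of the 5 measured in HCM1HA over wild type, beside 5.97% of all ORFs on its single array. By sign alone, both arrays were above 0 for 1 member and below 0 for 4 in the deletion, beside 29.1% and 35.8% of all ORFs. With the tet promoter the counts were 2 and 1, beside 32.4% and 33.8%, and without over with doxycycline 0 and 3, beside 37.0% and 37.9%. In HCM1HA they were 0 and 0 after 4 h (36.4% and 29.5% of all ORFs) and 1 and 0 after 10 h (35.8% and 35.8%). The median of the members was -0.13, 0.10 and -0.14 in the 3 Hcm1 comparisons, beside -0.01, -0.01 and 0.00 over all ORFs.

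The test took its spread between RNA pairs from the control comparisons (limma on the mean of both arrays, Benjamini-Hochberg adjusted over all ORFs tested, called below 0.05). HCM1HA over wild type entered by its first column alone and not by a mean. Of 5 members tested in each Hcm1 comparison, 0 were called and 0 had an unadjusted p below 0.05. Over all ORFs 0 of 3820 were called in the deletion (0.0%, with 94 at an unadjusted p below 0.05), 1 of 3488 with the tet promoter (0.0287%) and 1 of 3633 without over with doxycycline (0.0275%), HCM1 being the call in both. A control that is itself away from 0 widens this spread, and 8.86% of ORFs were called in HCM1HA after 10 h of doxycycline. With that control left out, an alternative added after the data were seen, 4, 11 and 153 ORFs were called in the 3 Hcm1 comparisons and 0 members. HST2 without over with doxycycline had an adjusted p of 0.561 in limma, an unadjusted p of 0.0582 and a 95% interval from -1.74 to 0.04. Without the 10 h control the adjusted p was 0.269 (limma), the unadjusted p 0.0295 and the interval -1.62 to -0.09. SIR2, HST2 and SIR4 had 1 control comparison each for this spread, HCM1HA over wild type, and so the value of a single array column. The tested members' intervals in the 3 comparisons were wide: SIR2 with the tet promoter had -0.45 to 1.27, HST1 in the deletion -0.88 to 0.59, HST4 without over with doxycycline -1.18 to 0.36 and SIR4 in the deletion -1.20 to 0.55. A 1.5-fold change lies within all of these.

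**Figure D2:**
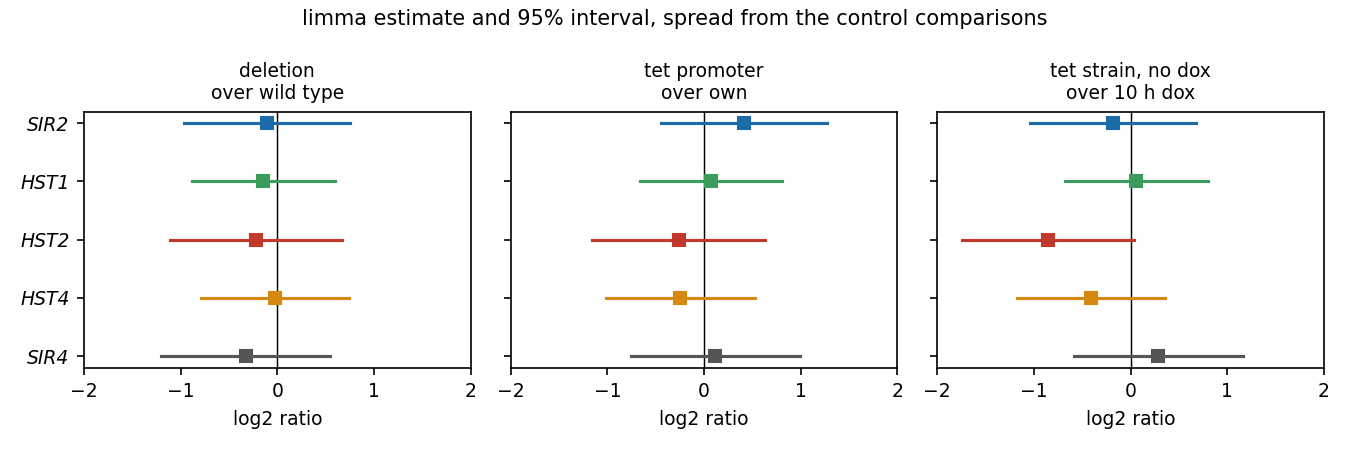
Estimated log2 ratio (horizontal axis, squares) and 95% interval (lines) of the 5 testable members in the 3 Hcm1 comparisons, from limma with the spread of the control comparisons. Every interval includes 0; that of HST2 without over with doxycycline reaches from -1.74 to 0.04.

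In the controls, HST1 and HST4 were the members that could be tested. Neither was called after 4 h of doxycycline, where 0 of 2307 ORFs were (0.0%, 73 at an unadjusted p below 0.05), nor in HCM1HA over wild type, with 0 of 2257 (0.0%, 4 at an unadjusted p below 0.05). After 10 h, where 199 of 2246 ORFs were called (8.86%), HST1 had a mean of 0.20 and HST4 of 0.25 (limma, adjusted p = 0.803 and 0.747). A control under test did not enter its own spread, which then came from the remaining controls. The difference between the doxycycline effects of the tet strain and of HCM1HA at 10 h was tested as the sum of both ratios, with the 10 h control left out of the spread in the same way. It was 0.26 for HST1 (95% interval -0.80 to 1.32, limma, adjusted p = 0.818) and -0.16 for HST4 (-1.22 to 0.91, adjusted p = 0.888), while 6.77% of 2156 ORFs passed.

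Treating both arrays as replicates with the Exp number as a block changed 3 calls. The replicate block gave HST2 an adjusted p of 0.000758 and HST4 one of 0.0131 without over with doxycycline (limma), among 2078 calls in 4462 ORFs. It also called HST2 after 4 h of doxycycline in HCM1HA at -0.71 (limma, adjusted p = 0.0155), from its 1 array there and an Exp term taken from the other comparisons. If both arrays hold the same RNA, as the design text reads, these p-values measure technical spread and not spread between RNA pairs.

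Several members differed between Exp 1 and Exp 2 in the same direction in every pair. Dye order and Exp number coincide in all comparisons, so an effect of the dye and one of the hybridisation cannot be told apart. HST2 read lower on Exp 2 than on Exp 1 in 3 of 3 complete pairs, by 0.29 to 0.32 on the log2 scale (Exp 2 minus Exp 1, a mean of -0.30 ± 0.02). HST4 read lower in 5 of 5 pairs, with a mean of -0.37 ± 0.15, and SIR4 read higher in 3 of 3, with a mean of 0.62 ± 0.11. HST1 read higher in 4 of 5, from -0.16 to 0.95. SIR2 and HST3 had pairs of both signs. Of 1837 ORFs with all 5 pairs, 48.5% had 1 sign in all of them, and the median size of the mean difference was 0.27. This share fits HST4, with 5 pairs, but not HST2 and SIR4, for whose 3 pairs no share was computed. The difference for SIR4 and for HST1 exceeds the size of their means in both tet comparisons.

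**Figure D3:**
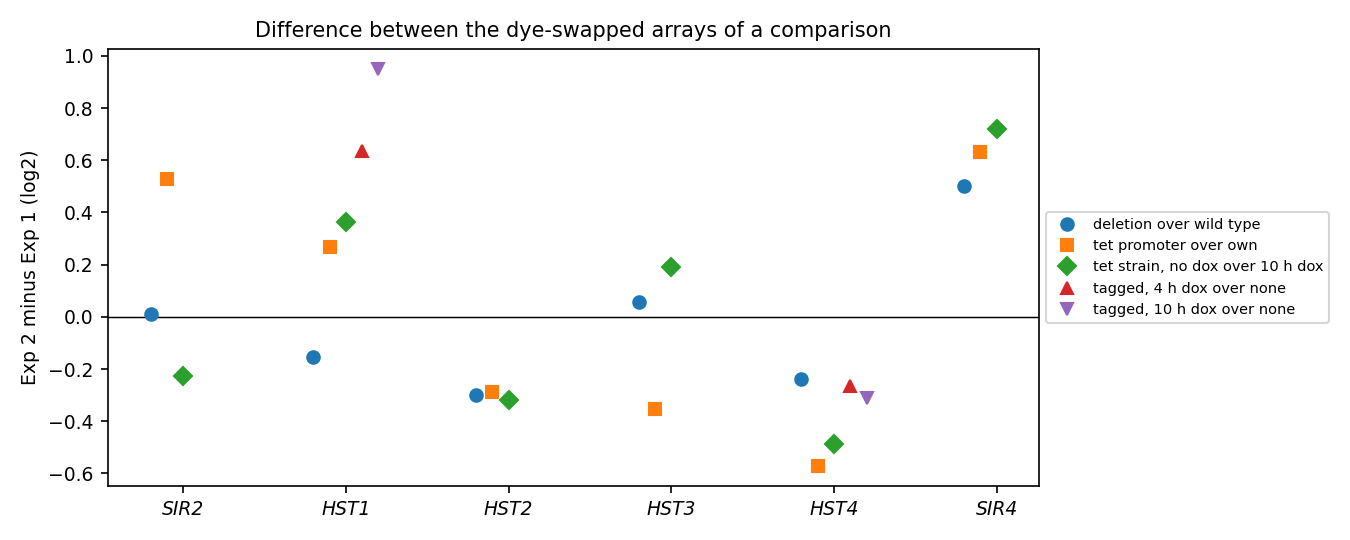
Exp 2 minus Exp 1 log2 ratio (vertical axis) of 6 members, with 1 symbol for each of 5 comparisons. The symbols of HST2 lie between -0.32 and -0.29, those of HST4 all lie below 0, those of SIR4 all above 0, and those of HST1 spread up to 0.95.

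Over the 10 arrays outside HCM1HA over wild type, the ORFs most like HST1 in pattern were ELF1 (Pearson r = 0.93), SIL1 (0.90) and ASM4 (0.89), among 1837 ORFs with all values. Like HST4 in pattern were ASP1 (0.96) and the kinetochore gene SPC24 (0.95). The arrays share the dye order and, in part, the RNA samples, so these are descriptions. No other member had all 10 values.

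The partners of Hst1 and their known targets were followed as a list. SUM1, which encodes the DNA-binding partner that brings Hst1 to its targets, was at -0.08 and -0.12 in the deletion. With the tet over the own promoter SUM1 was at -0.34 and -0.48, and without over with doxycycline at -0.67 and -0.74, a mean of -0.71 ± 0.05 (n = 2). SUM1 was thus below 0 on all 6 arrays, as were 15.3% of the 3826 ORFs measured on all of them. It had no control value and could not be tested. RFM1, the linker between Sum1 and Hst1, was measured in the deletion only, at -1.13 and 0.80.

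Of 6 NAD synthesis and uptake genes that the Hst1 complex is known to repress, 5 had values with the tet over the own promoter. There 4 were at least 1.5-fold higher and 0 lower, beside 4.88% and 2.07% of all ORFs, with a median of 0.83. Without over with doxycycline 5 of 6 were higher past that fold and 0 lower (8.34% and 8.24% of all ORFs), with a median of 1.27. In the deletion 0 of 5 were past it (0.213% higher and 5.54% lower over all ORFs), and the median was -0.24. BNA4, which encodes a step of synthesis from tryptophan, was at 1.63 and 1.82 with the tet promoter and at 2.31 and 2.28 without over with doxycycline. BNA1 (1.00 and 1.06, then 1.16 and 1.16), BNA5 (0.80 and 0.86, then 1.28 and 1.46) and the nicotinic acid transporter gene TNA1 (0.71 and 0.68, then 0.83 and 0.80) were past the fold in both comparisons. Both have the tet strain without doxycycline as numerator and are not taken as independent. BNA2 was at 1.33 and 1.56 without over with doxycycline, and in HCM1HA at -1.22 and -0.60 after 4 h of doxycycline and at -0.77 and 0.09 after 10 h. BNA6, also of this pathway, did not share the values, at 0.45 and 0.18 and at 0.16 and -0.13. None was called in either comparison (limma, adjusted p = 0.418 and 0.104 for BNA4). In the 10 h control BNA4 was at -0.07 and 0.12.

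The doxycycline effect on BNA4 was called as different between the tet strain and HCM1HA. Its log2 ratio without over with doxycycline was 2.32 higher in the tet strain (95% interval 1.26 to 3.38, limma, adjusted p = 0.0100). BNA4 and HTZ1 (described below) are named here because they were the list genes called in this difference. Over all ORFs 6.77% of 2156 were called in it, so such a call was not rare. The BNA4 difference lay between 2.01 and 2.40 over 14 alternative settings. The call was lost in 5 of them, with adjusted p between 7.43e-06 and 0.920, among them the Exp 1 arrays alone (adjusted p = 0.0826). The 9 settings that kept the call include both fits with arrays as replicates, the block giving the lowest p-value. Those fits measure technical spread if both arrays hold the same RNA. Another is the average of the mirrored columns, which puts a residual near 0 into the fit. Of 13 middle sporulation genes, the other known class under Sum1 and Hst1, 0 of 8 measured were past 1.5-fold in the deletion (0.213% of all ORFs higher, 5.54% lower). With the tet promoter it was 0 of 5 (4.88% and 2.07%). Without over with doxycycline it was 1 of 7, SPR28 at 0.59 and 0.67 (8.34% and 8.24%). The medians of the sporulation genes were 0.10, -0.32 and 0.05. SPS1 was at -0.69 and -0.70 after 4 h of doxycycline in HCM1HA, and at 0.27 and 0.32 in the tet strain without over with doxycycline.

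**Figure D4:**
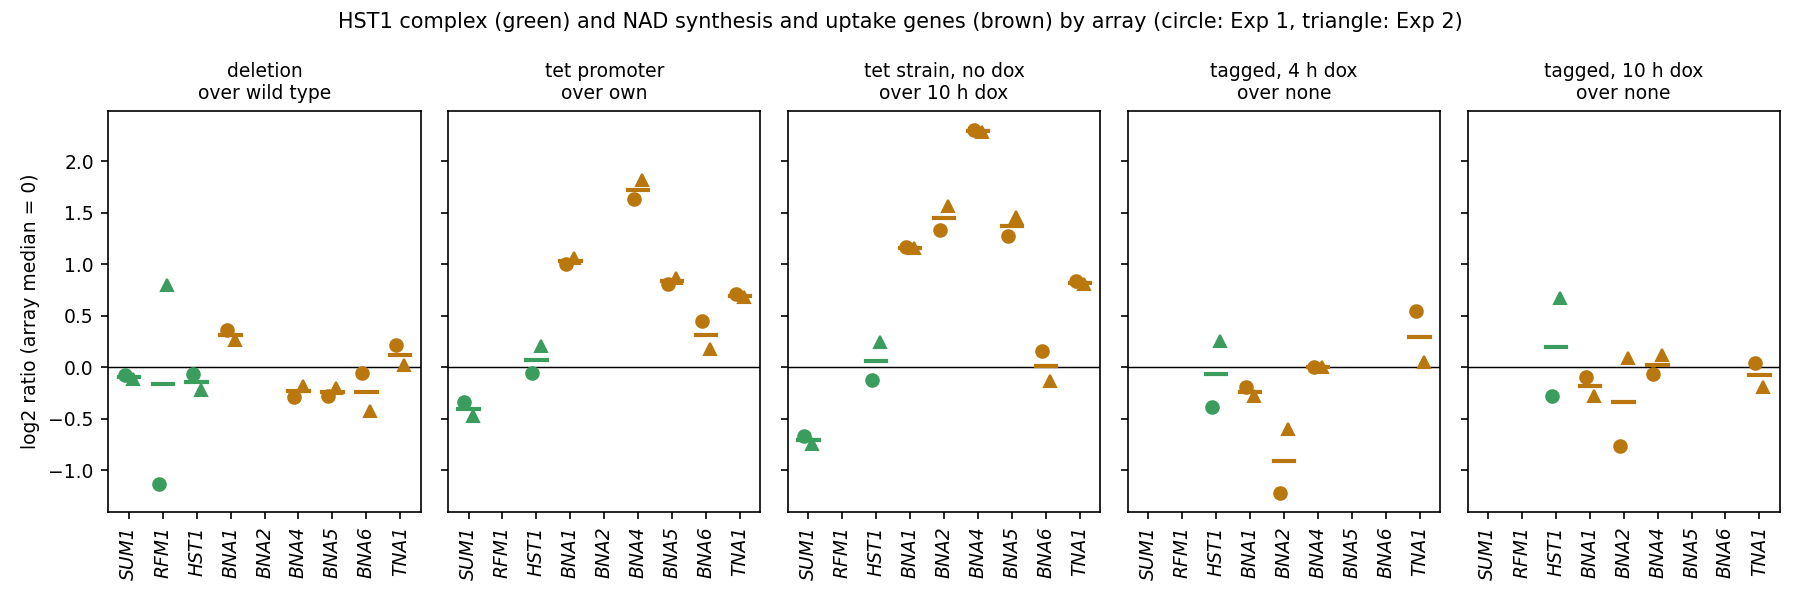
Log2 ratio (vertical axis) by array of HST1, SUM1 and RFM1 (green) and of the NAD genes known to be repressed by their complex (brown), in 5 comparisons, with circles for Exp 1, triangles for Exp 2 and bars for the mean. In both tet comparisons BNA1, BNA4, BNA5 and TNA1 lie at 0.68 or higher on every array, while SUM1 lies between -0.34 and -0.74 and HST1 between -0.12 and 0.24.

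Genes for NAD salvage, which recycle the nicotinamide that sirtuins release, had medians of 0.06, 0.15 and 0.27 in the 3 Hcm1 comparisons over 4 of 6 genes. None was past 1.5-fold on both arrays there. The shares of all ORFs past it were 0.213% higher and 5.54% lower, then 4.88% and 2.07%, then 8.34% and 8.24%. PNC1, the nicotinamidase, was at -0.46 and -0.29 in the deletion at -0.73 and -0.53 with the tet promoter, and at -0.13 and -0.25 without over with doxycycline. In HCM1HA it was at -0.77 and -0.43 after 4 h of doxycycline, and at -1.21 and -1.05 after 10 h, past 1.5-fold. PNC1 was 1 of 3 salvage genes measured after 10 h, where 12.2% of all ORFs were past it lower and 10.3% higher. NMA2, which encodes an adenylyltransferase of NAD synthesis, was at 0.66 and 0.37 without over with doxycycline.

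Of 16 genes that act with the SIR complex or limit it, 16, 9 and 13 were measured on both arrays in the 3 Hcm1 comparisons, with medians of 0.01, 0.09 and 0.16. HTZ1, the histone H2A variant that borders silent regions, was at 1.44 and 0.92 with the tet promoter and at 1.84 and 1.47 without over with doxycycline. In HCM1HA, with over without doxycycline, it was at 0.79 and 0.18 after 4 h and at 0.75 and -0.07 after 10 h. The doxycycline effect differed by 1.99 between the strains (95% interval 0.88 to 3.11, limma, adjusted p = 0.0272), a call lost in 8 of 14 alternatives (adjusted p between 2.10e-05 and 0.972), those with Exp 1 alone (0.0858) and Exp 2 alone (0.236) included. Over all ORFs 6.77% of 2156 were called in this difference, so a call like that of HTZ1 was not rare. Both fits with arrays as replicates kept the HTZ1 call, the block with the lowest p-value, and measure technical spread if the arrays share RNA. ESC1, which anchors Sir4 at the nuclear periphery, was at -0.83 and -0.96 in the deletion and at -0.94 and -1.69 without over with doxycycline. HTZ1 and ESC1 account for all values of this list past the fold. Of all ORFs, 0.213% were past it higher and 5.54% lower in the deletion. The shares were 4.88% and 2.07% with the tet promoter, and 8.34% and 8.24% without over with doxycycline.

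Of the 6 genes of the silencing complex at the ribosomal DNA, 6, 4 and 5 were measured in the Hcm1 comparisons and 0 were past the fold. Over all ORFs the shares past it were 0.213% higher and 5.54% lower, then 4.88% and 2.07%, then 8.34% and 8.24%. The medians of these 6 genes were -0.09, -0.03 and -0.03. NET1, which tethers Sir2 there, was at -0.50 and -0.20, at -0.43 and -0.14, and at -0.75 and -0.34, below 0 on each array. Of the 3826 ORFs measured on all these arrays, 15.3% were below 0 on each. Histone acetylation and assembly genes that act before Hst3 and Hst4 were measured in 13, 9 and 11 of 14 cases, with medians of -0.05, -0.17 and -0.07. Of these, RLF2 (-0.84 and -0.62) and CAC2 (-0.59 and -0.65), which encode subunits of chromatin assembly factor I, were lower past the fold without over with doxycycline. In the deletion RLF2 was at -0.51 and -0.17 and CAC2 at 0.46 and -0.04, and none of the list was past the fold there or with the tet promoter.

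Of 15 genes of deacetylases of the other classes, 12, 8 and 10 were measured on both arrays in the Hcm1 comparisons. Their medians were -0.07, 0.14 and 0.04. In the deletion 0 were past 1.5-fold higher and 1 lower, beside 0.213% and 5.54% of all ORFs. With the tet promoter it was 1 higher and 0 lower (4.88% and 2.07% of all ORFs). Without over with doxycycline it was 2 higher and 0 lower (8.34% and 8.24%). SET3, of the Hos2 and Hst1-containing Set3 complex, was at 0.77 and 0.74 with the tet promoter and at 0.93 and 0.79 without over with doxycycline. SAP30, of the Rpd3 complex, was at 0.72 and 1.47 in the latter. SDS3, of the same complex, was at -1.55 and -1.23 in the deletion, but it lies on chromosome IX, whose 193 measured ORFs had a median of -0.92 there. None of the 7 members lies on chromosome IX.

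Readouts of silencing were sparse. Of 4 cassette genes, HMLALPHA2 was at -0.61 and 0.32 in the deletion, and HMRA2 at 0.07 and -0.02, at 0.31 and -0.28 and at -0.29 and -0.03 in the 3 Hcm1 comparisons; their sequences are shared with the mating type locus. Markers of a MATa cell were measured for 4, 3 and 4 of 6 genes, with medians of -0.22, -0.37 and -0.44. STE6, which exports a-factor, was at -1.03 and -0.83 without over with doxycycline, and BAR1 at -0.72 and -0.89 in the deletion, again on chromosome IX. Markers of the opposite mating type were measured for 2, 1 and 1 of 4 genes, with medians of -0.37, 0.00 and -0.12, and none was past the fold. Over all ORFs 0.213%, 4.88% and 8.34% were past it higher in these comparisons, and 5.54%, 2.07% and 8.24% lower. MF(ALPHA)2, a gene for alpha-factor, was at -0.50 and -0.62 in the deletion, and SAG1, for alpha-agglutinin, at -0.10 and -0.24. Genes active in haploid cells had medians of 0.36, -0.04 and 0.31 over 7, 6 and 7 of 8 genes, and none was past the fold in these comparisons. The furthest from 0 without over with doxycycline were FUS3, a pheromone pathway kinase, at 0.52 and 1.01 and RME1, a repressor of meiosis, at -0.48 and -0.76. STE4, for a G protein subunit of the pheromone pathway, was at 0.66 and 0.68 after 4 h of doxycycline in HCM1HA, past the fold. It was 1 of 3 haploid genes measured there, where 5.09% of all ORFs were past it higher and 5.13% lower. The part of mating type markers in the values of the members was not tested.

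Among the outermost 10 genes at each chromosome end (320 genes, 281 in the table), 192, 124 and 135 were measured on both arrays in the 3 Hcm1 comparisons. In the deletion 5 were at least 1.5-fold higher (2.60%) and 13 lower (6.77%), beside 0.213% and 5.54% of all ORFs; 7 of the 13 lie on chromosome IX. The 5 higher genes were CHA1, ZRT1, MMP1, MHT1 and SAM3, of amino acid, zinc and S-adenosylmethionine use. With the tet promoter 7.26% were higher and 8.87% lower, and without over with doxycycline 13.3% and 12.6%, against the shares of 4.88%, 2.07%, 8.34% and 8.24% over all ORFs. In HCM1HA they were 6.10% and 14.6% after 4 h of doxycycline, beside 5.09% and 5.13% of all ORFs, and 6.41% and 16.7% after 10 h, beside 10.3% and 12.2%. Medians stayed near 0 at -0.07, 0.09 and 0.04. Examples chosen after their values were seen were, among the lower genes in the tet strain without over with doxycycline, YFL067W (-1.52 and -2.15), YFL068W (-1.40 and -2.02) and YHL050C (-0.82 and -1.29), and, among the higher, AAD15 (1.66 and 1.38) and ARR2 (1.68 and 1.28). Genes at chromosome ends often have near copies at other ends, so their signals may be shared.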

How the data were processed

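The deposited table holds log2 ratios of the 2 dyes of each array, normalized by the authors with a method not given in the sources used here. The log2 scale was read from the values: in 11 of 12 columns every value is the log2 of a ratio with 3 decimals, and the remaining column mirrors its partner. The labels give the numerator's dye, so all columns run the same way except that mirrored pair. Each array was centred on its median. ORFs needed both arrays of a comparison, except in HCM1HA over wild type, where the first column alone was used. The mean of both arrays, or that column, was fitted with limma 3.58.1 (R 4.3.3, lmFit and eBayes), 1 value per RNA pair. For the Hcm1 comparisons the residual came from the 3 control comparisons, whose true ratio was taken as 0. In tests of a control, and of the difference of doxycycline effects, the control concerned was fitted too, and the residual came from the others. Whether RNA pairs came from separate cultures is not stated. Deviations of arrays with the same Exp number from their comparison's mean correlated at 0.56 to 0.68 over 10 pairs of comparisons, so arrays with the same number deviate together and the number, which is also the dye order, was fitted as a block too.

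The 7 members, picked by ORF name, and 13 related lists were proposed with earlier results of these data known. Named genes were all members, HCM1, list genes past 1.5-fold on both arrays or otherwise the 2 furthest from 0, and the 3 ORFs most correlated with each member that had all values, of which 1 is not reported here. Not all genes this rule allows are named, and BNA6 and the examples near chromosome ends fall outside it. Names came from a RefSeq table that matched 5675 ORFs (499 unmatched). The fit was tested on simulated data. Promoter motifs, planned as a description, were not searched because promoter sequence was not used here. Alternatives covered centring, scaling, moderation, the replicate unit, arrays left out, the controls (leaving out the 10 h doxycycline control was added after the data were seen), value filters, coding length and the fold. The number of arrays limits precision; intensities were not used here.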

Additional observations from a re-analysis of the deposited data

How the results depend on the processing

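Of 102 counts of called members under 15 alternative settings, 98 equalled the count reported and 4 did not. Without over with doxycycline, 1 member (HST2) was called with arrays as replicates, 2 (HST2 and HST4) with the replicate block, and 1 (HST2) with the mirrored columns averaged, which puts a residual near 0 into the fit by construction. After 4 h of doxycycline the block called 1 member (HST2). At 2-fold in place of 1.5-fold, 0 members were past the fold without over with doxycycline. HST2 there ranged from -1.01 (without Exp 1) to -0.69 (without Exp 2), with adjusted p between 0.000758 and 0.947 over 13 alternatives; the filter on ORFs with all values and the fit without HCM1HA over wild type, its only control, left HST2 out. Of 22 mean values of members, 8 changed sign on Exp 1 alone, 2 on Exp 2 alone and 1 without centring, and 0 in each of the other settings that recomputed them. Calls over all ORFs ranged over the alternatives from 0 to 892 in the deletion, 0 to 911 and 0 to 2078 in the tet comparisons, 0 to 4 for HCM1HA over wild type, 0 to 1242 after 4 h, 0 to 1492 after 10 h (199 as reported) and 0 to 1507 for the difference of doxycycline effects (146 as reported). The highest counts come from the replicate block. Missing values leave SIR3 with 1 array and HST3 with no control.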
